A study of Mus musculus with 9 samples.

Results

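The genes described here encode the proteins of the mitochondrial ribosome, read on mouse arrays as every probe set that the platform annotation ties to a single symbol of the Mrpl or Mrps kind followed by a number. The rule found 156 probe sets for 76 genes among 34945 probe sets for 18193 genes that carry 1 gene name. They divide into 47 Mrpl genes with 104 probe sets, named for the large subunit, and 29 Mrps genes with 52 probe sets, named for the small subunit. A further 4 probe sets that join Mrpl30, Mrpl53 or Mrps34 to a second gene were left out. RNA was measured on 9 Affymetrix whole-genome mouse arrays in 3 groups of 3: total spinal cord from wild type mouse, motor neurons cut from wild type mouse cord by laser capture microdissection, and motor neurons captured in the same way from SOD1 mutant mouse. SOD1 encodes a cytosolic superoxide dismutase, and its mutant forms cause a motor neuron disease. The source field of all 9 samples names ventral spinal cord, although the cord samples are described as total cord, and all titles include D28, which the labels do not explain. The SOD1 allele, the age and disease stage of the mice, the way motor neurons were recognised and whether arrays share an animal were not stated in the labels. The p-values therefore measure the spread between arrays, which may be technical.

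The mitochondrial ribosome sits at the inner mitochondrial membrane and translates the few messages made from mitochondrial DNA, all of which encode membrane subunits of the respiratory chain and the ATP synthase. Its proteins are encoded in the nucleus, made in the cytosol and imported. Some are homologues of bacterial ribosomal proteins and others exist only in mitochondria, and defects in several of them cause inherited respiratory chain disease.

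Promoter sequence was available from RefSeq (assembly GRCm38.p6) for 67 of the 76 genes, in 73 windows that run from 250 bases before the start of transcription to 50 bases after it. The letters of 4 motifs were searched on both strands. The core GCGCATGC of the factor NRF1, a known activator of nuclear genes for mitochondrial proteins, occurred within the 250 bases before the start in 8 of 67 genes, or 11.9%, against 2.56% of all 27025 genes in the RefSeq table. The core CCGGAAG of the ETS family, which includes the mitochondrial regulator GABP, occurred in 17 genes, or 25.4%, against 7.83% of all genes. Over the whole 300-base window it occurred in 25, or 37.3%, against 9.93%. For the YY1 core AAGATGGC there were 4 genes, or 5.97%, against 1.83%, and over the whole 300-base window there were 12, or 17.9%, against 3.19%. For the SP1 core GGGCGG there were 33 genes, or 49.3%, against 35.4%. The set of all 27025 genes includes non-coding ones, whereas the 67 genes all encode proteins. The motif shares of protein-coding genes alone were not counted. How much of each difference comes from this was therefore not tested. The motifs can overlap each other, and a match describes letters, not a bound site. The 6 sequences that follow show the range: Mrpl22 and Mrpl39, among the largest rises in motor neurons, with NRF1 letters; Mrpl17, among the lowest p-values in the mutant comparison, with NRF1 and SP1 letters; Mrpl11, the largest rise of all, with none of the 4; and the bases that separate 2 of these genes, Mrps11 and Mrps12, from neighbours transcribed in the opposite direction. The first 4 are the 150 bases just before the start on the coding strand, the last 2 are the bases between both starts on the plus strand, and capitals mark the letters of any of the 4 motifs on either strand.
Mrpl22, chr11:58171514-58171663, plus strand: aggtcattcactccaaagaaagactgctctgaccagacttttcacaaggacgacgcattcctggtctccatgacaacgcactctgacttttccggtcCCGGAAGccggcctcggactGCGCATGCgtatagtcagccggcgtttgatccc
Mrpl39, chr16:84735245-84735394, minus strand: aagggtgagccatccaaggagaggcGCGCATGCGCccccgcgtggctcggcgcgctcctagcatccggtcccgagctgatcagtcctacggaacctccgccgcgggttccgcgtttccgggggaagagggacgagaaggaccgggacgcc
Mrpl17, chr7:105811088-105811237, minus strand: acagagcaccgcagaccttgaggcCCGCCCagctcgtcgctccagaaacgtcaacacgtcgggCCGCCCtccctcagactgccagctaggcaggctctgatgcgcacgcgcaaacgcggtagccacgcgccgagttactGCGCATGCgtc
Mrpl11, chr19:4962156-4962305, plus strand: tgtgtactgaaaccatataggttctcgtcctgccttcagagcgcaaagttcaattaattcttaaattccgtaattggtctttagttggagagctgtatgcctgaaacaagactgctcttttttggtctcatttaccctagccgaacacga
Mrpl46 to Mrps11, chr7:78783090-78783130, plus strand: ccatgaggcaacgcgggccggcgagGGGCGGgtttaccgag
Mrps12 to Sars2, chr7:28741822-28741967, plus strand: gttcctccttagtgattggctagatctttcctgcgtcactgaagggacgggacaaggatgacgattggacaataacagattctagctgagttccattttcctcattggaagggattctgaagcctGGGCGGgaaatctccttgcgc

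Values are linear probe set signals, which the authors had scaled to a common trimmed mean of 2500 on every array before deposit. Summed over the markers listed for each cell type, the 8 motor neuron and cholinergic markers gave 18411 to 28521 on the cord arrays, 281783 to 295047 on the wild-type motor neuron arrays and 258635 to 272301 on the mutant ones. The brightest were Calcb, Prph and Chodl, with means of 102199, 83039 and 69249 in wild-type motor neurons. Of the 8 markers 7 were called higher there than in cord. Chat was not, with means of 673 against 424 (log2 0.61, limma adjusted p = 0.0816). Markers of other cells were lower in the captured material but present. The 5 oligodendrocyte markers summed to 452391 to 539919 in cord, 237585 to 250328 in wild-type and 273647 to 306986 in mutant motor neurons, and the 6 astrocyte markers to 201344 to 217365, 22821 to 37316 and 50894 to 60104. Of the 6 microglial markers, Aif1 and C1qc were below background on every wild-type motor neuron array and Aif1 on every mutant one. The 6 microglial markers summed to 43309 to 46436, 2529 to 3090 and 3813 to 4339 in the 3 groups, the 5 vascular and meningeal markers to 54745 to 134899, 5769 to 8445 and 6275 to 7537, and the 4 inhibitory interneuron markers to 56769 to 65203, 17675 to 20326 and 16030 to 24175. The control transcript Gapdh was read at its 3′ and 5′ ends, and the log2 ratio of these signals was -0.28 ± 0.01 (SD, n = 3) in cord, 4.03 ± 0.44 in wild-type and 4.49 ± 0.15 in mutant motor neurons. The 3′ end of this transcript was thus far brighter than its 5′ end on the captured arrays only, and the part of this in the comparisons with cord was not tested. With 3 arrays against 3 the exact permutation p of 0.1 for each captured group against cord is the smallest the design allows.

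Most genes for mitochondrial ribosomal proteins were more abundant in wild-type motor neurons than in whole cord. Of the 76 genes, each read from its brightest tested probe set, 55 rose and 5 fell at an adjusted p under 0.05 (limma, Benjamini-Hochberg over all 27022 probe sets tested), and 16 were not called. Among all 12983 genes tested, 31.1% were called higher and 36.1% lower. The median change over the 76 genes was 0.67 on the log2 scale, against -0.10 over all genes tested, and the middle of the distribution ran from 0.28 to 1.14 at its quartiles. All 76 brightest probe sets were above the background level on all 9 arrays. Fewer cells of a type and less RNA per cell cannot be told apart in such samples.

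The shift was present on each captured array. Relative to the cord mean, the median gene stood at 0.57, 0.68 and 0.75 on the 3 wild-type motor neuron arrays, and at 0.28, 0.45 and 0.50 on the 3 mutant ones. All genes tested lay between -0.15 and -0.06 on the same 6 arrays. Both captured groups were therefore above cord on every array, and the wild-type arrays lay above the mutant ones without overlap. Whether the level is set by the authors' scaling was examined with 2 other scalings. Quantile normalization moved the median of all genes from -0.10 to 0.27 and gave 55 rises and 3 falls with a median of 0.69 for the 76 genes. Centring each array on its median moved all genes to 0.81 and gave 75 rises and no fall, with a median of 1.58. Of all genes tested, quantile normalization called 42.2% higher and 26.1% lower, and centring 57.9% higher and 15.3% lower.

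Both subunits took part. Among the 47 large subunit symbols 31 rose and 4 fell, with a median of 0.64, and among the 29 small subunit symbols 24 rose and 1 fell, with a median of 0.73. The 46 genes with a bacterial homologue had 36 rises and 3 falls (median 0.65), and the 30 genes specific to mitochondria had 19 rises and 2 falls (median 0.71). For the ribosome of the cytosol, 15 of 47 protein genes rose and 13 fell, with a median of 0.03. This depended on the scaling. With quantile normalization 7 rose and 26 fell (median -0.35, against 0.27 over all genes). With centring 35 rose and 2 fell (median 0.94, against 0.81). The difference between the sets was not tested.

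**Figure D1:**
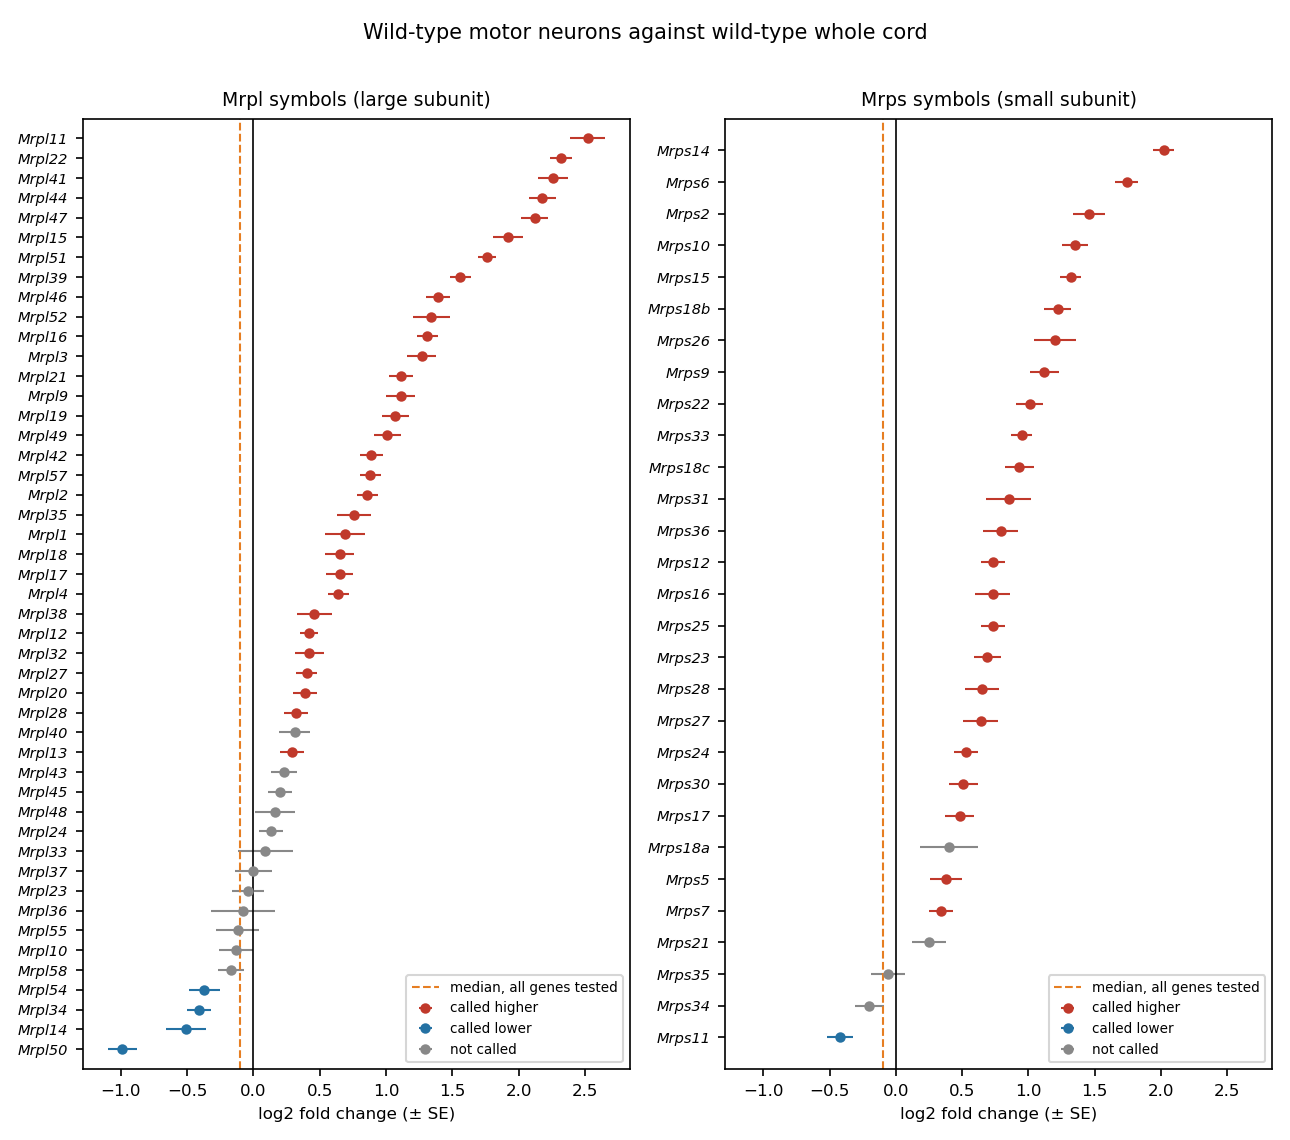
Log2 fold change of each of the 76 genes between wild-type motor neurons and wild-type cord (horizontal axis, point with its standard error from limma), ordered within the large subunit symbols (left) and the small subunit symbols (right). Red points were called higher, blue lower and grey neither, the dashed line is the median of all genes tested at -0.10, and values run from -0.99 for Mrpl50 to 2.52 for Mrpl11.

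The 10 largest rises were between 2.96-fold and 5.74-fold and came from both subunits. Mrpl11, the protein at the base of the stalk where translation factors dock, gave signals of 4846, 5497 and 4708 on the cord arrays, 24084, 32311 and 30794 on the wild-type motor neuron arrays and 19281, 28898 and 23146 on the mutant arrays. Each captured array lay far above each cord array. The log2 change from cord to wild-type motor neurons was 2.52 (SE 0.13, limma adjusted p = 7.20e-07). The other stalk proteins did not move alike: Mrpl12, which forms the stalk itself and also binds the mitochondrial RNA polymerase, rose by 0.42 (SE 0.07, limma adjusted p = 8.85e-04), and Mrpl10, which anchors it, was not called at -0.13 (SE 0.13).

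Proteins that line the polypeptide exit of the large subunit were unequal in the same way. Mrpl22, whose promoter with NRF1 and ETS letters is printed above, read 9776, 9043 and 9833 on the cord arrays, 47916, 50797 and 44548 in wild-type motor neurons and 44539, 49734 and 51277 in mutant motor neurons. The groups of captured arrays overlapped each other and stood well above cord (4.99-fold in the wild type, log2 2.32, SE 0.08, limma adjusted p = 2.18e-07). Mrpl47, the homologue of bacterial L29 beside the exit, read 9512, 9013 and 9435 in whole cord and 44096, 42858 and 35083 in wild-type motor neurons, a rise of 4.34-fold. Its second tested probe set was not called, at -0.27. Mrpl23 and Mrpl24, which also surround the exit, were not called, with log2 changes of -0.04 (SE 0.12) and 0.13 (SE 0.09).

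Among proteins specific to mitochondria, Mrpl41 read 16854, 17834 and 14861 in whole cord and 76241, 90301 and 71343 in wild-type motor neurons, a rise of 4.79-fold (limma adjusted p = 5.92e-07). Its mutant arrays, at 69657, 84949 and 96342, covered the range of the wild-type ones. Mrpl44, which carries a ribonuclease III fold and is mutated in an inherited cardiomyopathy, rose 4.52-fold from 6094, 6483 and 6771 to 26053, 32463 and 29381. Mrpl51 rose 3.39-fold on its brightest probe set, while 2 of its 3 tested probe sets were called lower. Mrpl39, which resembles a threonyl-tRNA synthetase, rose 2.96-fold. The arrays of Mrpl39 read 22048, 23621 and 24305 in cord, 68588, 73647 and 65003 in wild-type and 74858, 81655 and 82255 in mutant motor neurons, so that its mutant arrays were all above its wild-type arrays, a difference that did not pass the test (log2 0.20, limma adjusted p = 0.404).

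In the small subunit the largest rise was that of Mrps14, a protein of the head, which read 14861, 14081 and 14548 in cord, 65214, 55770 and 56390 in wild-type and 54497, 57134 and 65230 in mutant motor neurons. This was a 4.06-fold difference from cord (log2 2.02, SE 0.08, limma adjusted p = 3.32e-07) with overlapping arrays of the 2 genotypes. Of the 3 tested probe sets of Mrps14 only this 1 was called, and the others stood at -0.32 and 0.10. Mrps6, a protein of the platform, rose 3.33-fold, and in the large subunit Mrpl15, a protein of the core, rose 3.80-fold. Mrps12, which reaches into the decoding centre, rose by 0.73 from 12491, 11676 and 11860 to 18117, 20777 and 20903. The disease-linked genes Mrps16, Mrps22 and Mrpl3 rose by 0.73, 1.01 and 1.27.

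**Figure D2:**
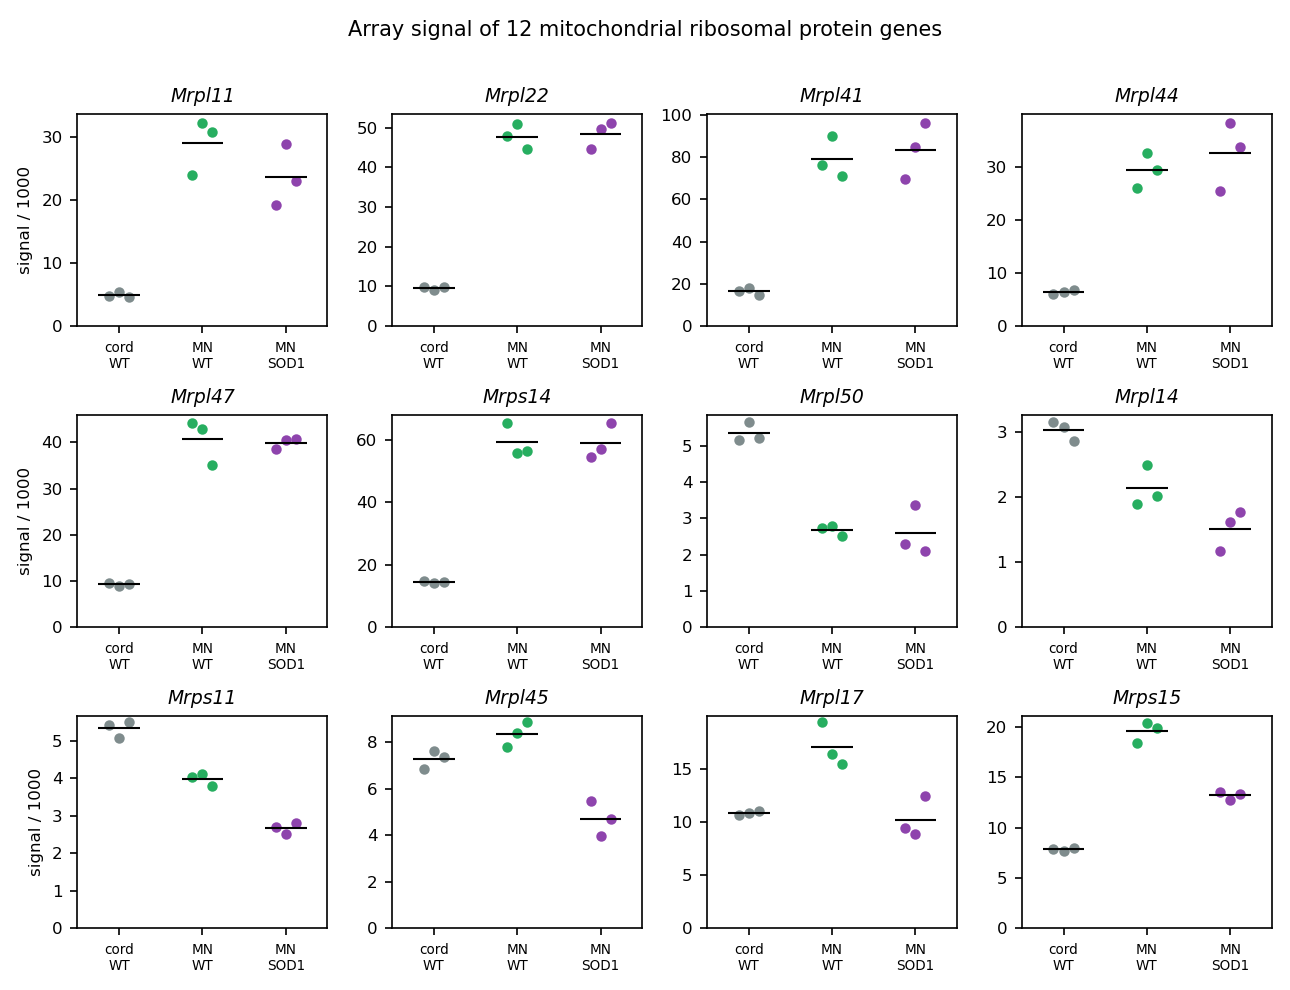
Array signal divided by 1000 (vertical axis, from 0) of 12 genes in cord and in motor neurons of both genotypes, 3 arrays a group, with the mean as a bar. Each gene is read from its brightest tested probe set. Mrpl11 to Mrps14 show captured arrays of both genotypes far above cord, Mrpl50, Mrpl14 and Mrps11 lie below cord, and Mrpl45, Mrpl17 and Mrps15 are lower on every mutant array than on every wild-type motor neuron array.

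The symbols do not always follow present knowledge of where a protein sits, and these cases were read one by one. Mrps18a, Mrps18b and Mrps18c are 3 relatives of a single bacterial protein, and the first of them belongs to the large subunit. Mrps18b rose by 1.22 (SE 0.10) and Mrps18c by 0.93 (SE 0.11), whereas Mrps18a was not called at 0.40 (SE 0.22), with wild-type motor neuron arrays spread from 9615 to 19798 around cord arrays of 9790, 11146 and 9970. Mrps30, also a large subunit protein despite its symbol, rose by 0.51 (SE 0.11). Mrps36, now assigned to a dehydrogenase complex of the citric acid cycle and not to the ribosome, rose by 0.79 (SE 0.13), so it moved with the family whose symbol it carries.

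The 5 genes that fell changed by less than those that rose the most, and none was still called lower with each array centred on its median. Mrpl50, a protein specific to mitochondria, read 5167, 5667 and 5211 in cord, 2742, 2798 and 2508 in wild-type and 2294, 3371 and 2091 in mutant motor neurons, a fall of 1.99-fold (log2 -0.99, SE 0.11, limma adjusted p = 6.06e-05). Mrpl14, at the interface of the subunits, fell by 0.51, Mrps11, of the small subunit platform, by 0.42, Mrpl34 by 0.41 and Mrpl54 by 0.37. With centring these 4 stood above 0 instead, at 0.39, 0.49, 0.50 and 0.54, and Mrpl54 also did under quantile normalization, at 0.06. Single arrays moved the count of falls: 9 genes fell without replicate 2 of the wild-type motor neurons and 3 without replicate 1 of the cord.

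Probe sets of the same gene often disagreed. Over all 140 tested probe sets of the family 75 were higher and 25 lower, against 24.0% and 41.5% of all probe sets tested. The 64 probe sets that were not the brightest of their gene had 20 higher and 20 lower calls and a median of -0.05. Of 37 genes with several tested probe sets, 15 had at least 1 probe set called in each direction, or 40.5%, against 21.5% of 6010 such genes among all. These were Mrpl1, Mrpl3, Mrpl9, Mrpl15, Mrpl19, Mrpl44, Mrpl48, Mrpl50, Mrpl51, Mrpl52, Mrpl57, Mrps2, Mrps5, Mrps6 and Mrps23. The choice of the brightest probe set thus weighed on the count for these genes. The 39 genes with a single tested probe set, which need no choice, had 24 rises and 2 falls and a median of 0.48, against 24.5% and 38.0% and a median of -0.23 over the 6973 genes of that kind.

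The widest disagreement was in Mrpl9. Its brightest probe set read 4884, 4438 and 4386 in whole cord and 10236, 10660 and 8840 in wild-type motor neurons, a log2 change of 1.11, while a second one read 2735, 2565 and 2301 in whole cord and 311, 237 and 129 in wild-type motor neurons, a change of -3.45 with 2 of the 3 captured arrays above background. Its remaining tested probe set was not called, at 0.02 (SE 0.12). Mrps2, a small subunit protein, was similar, with its brightest probe set going from 4837, 3850 and 4879 to 13184, 11830 and 12326 (log2 1.46) and the other from 2402, 2509 and 1932 to 526, 255 and 358 (log2 -2.57). The direction given for such a gene holds for 1 probe set and not for the other.

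Mrpl44 and Mrpl15 were split over more probe sets. For Mrpl44, 3 of 4 tested probe sets rose, by 1.14, 2.04 and 2.18, and 1 fell, by 1.88. For Mrpl15, 3 of 6 rose, by 1.02, 1.39 and 1.92, and 2 fell, by 1.31 and 1.53, with the last at -1.20 and not called. In Mrps23 the brightest probe set rose by 0.69, a dim one rose by 2.30 and another fell by 1.27. Mrpl50, the largest fall, rose by 1.12 on its second probe set, and Mrpl48, not called on its brightest one, rose by 1.65 and fell by 0.73 on the others. Mrpl39, Mrpl41, Mrpl11 and Mrps15 rose on all of their 2, 2, 3 and 2 tested probe sets. The positions of probes within transcripts were not used here, and the part of the 3′ shift of Gapdh in these splits was not tested.

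**Figure D3:**
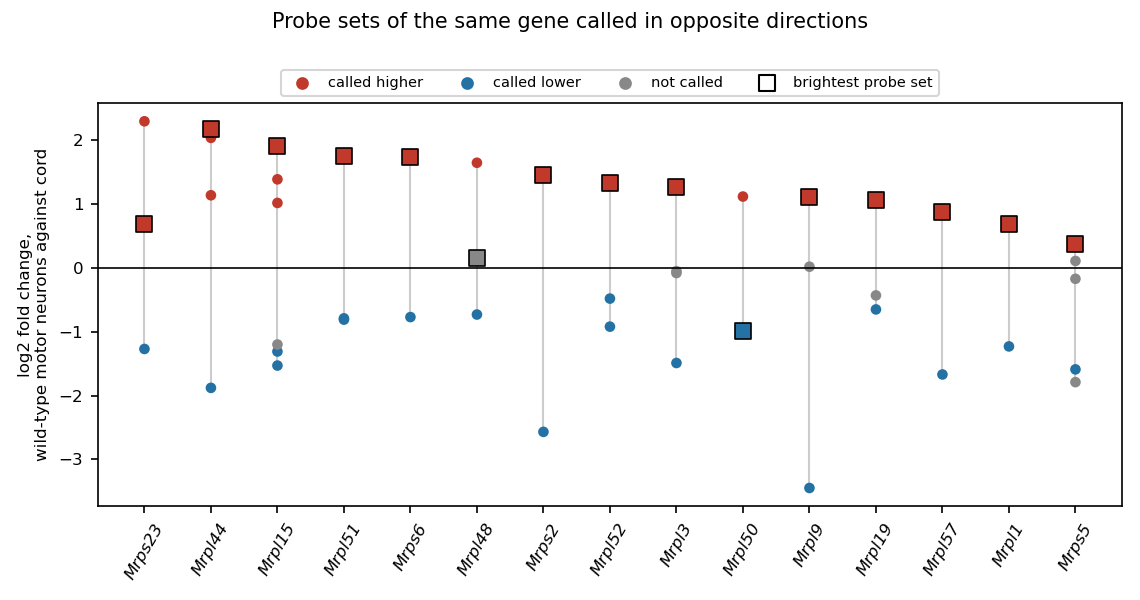
Log2 fold change between wild-type motor neurons and cord (vertical axis) of every tested probe set of the 15 genes with calls in both directions, with genes along the horizontal axis. Squares mark the brightest probe set, which was higher in 13 of the 15 genes, lower in Mrpl50 and not called in Mrpl48.

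Between SOD1-mutant and wild-type motor neurons no gene of the family passed the test, but most brightest probe sets read lower in the mutant. At an adjusted p under 0.05 limma called 0 of 76 higher and 0 lower, where 0.169% and 0.0847% of all genes were called. At an unadjusted p under 0.05, 22 genes were lower and 0 higher, against 8.57% lower and 8.23% higher over all genes. Log2 values were below 0 for 59 of 76 genes, or 77.6%, against 50.5% of all genes, and the median was -0.21 against -0.01. The 3 mutant arrays lay below all 3 wild-type arrays for 27 genes and above them for 3, against 12.8% and 11.6% of all genes. The family's median stayed between -0.25 and -0.15 with any 1 of the 6 arrays left out. The 47 cytosolic ribosomal protein genes had a median of 0.01. Of the 64 probe sets that were not the brightest of their gene, 34 were above 0 and 30 below, with a median of 0.02. At an unadjusted limma p under 0.05, 11 of these were lower and 5 higher, against 2196 and 1921 of all 27022 tested.

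The 5 genes of lowest p, each read from its brightest tested probe set, were all lower in the mutant. Mrpl45, which tethers the large subunit to the inner membrane, read 7811, 8375 and 8861 in wild-type and 5474, 3980 and 4698 in mutant motor neurons, with 6826, 7616 and 7341 in cord. The mutant arrays were below both other groups, with a log2 change from the wild type of -0.83 (SE 0.17, limma adjusted p = 0.0884). Mrpl17, a large subunit protein whose promoter holds NRF1 letters, read 19431, 16420 and 15523 against 9411, 8840 and 12433, a change of -0.75 (SE 0.17, limma adjusted p = 0.109), and its cord arrays at 10645, 10828 and 11068 lay within the range of the mutant ones. Mrps15, at the interface of the subunits, read 18367, 20385 and 19901 against 13506, 12681 and 13361, a change of -0.57 (SE 0.13, limma adjusted p = 0.109), while its cord arrays were lower than either at 7863, 7630 and 7987. For Mrpl24 and Mrpl28 the changes were -0.51 (SE 0.14) and -0.60 (SE 0.17). Other tested probe sets of these genes changed less or the other way. Those of Mrpl17 stood at 0.05 and 0.76, the latter with mutant arrays of 453, 384 and 315 above wild-type arrays of 165, 260 and 235. For Mrpl28 they stood at -0.20 and -0.09, and for Mrps15 at -0.41.

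These calls hung on the fit. With all 9 arrays in 1 fit, which takes its spread partly from the cord arrays, 9 genes were called lower: Mrpl17, Mrpl24, Mrpl28, Mrpl45, Mrps7, Mrps11, Mrps15, Mrps18b and Mrps26. In that fit 2.33% of all genes tested were called lower. For the 10 genes with the largest rises over cord the change between genotypes ran from -0.30 for Mrpl11 (SE 0.17) to 0.20 for Mrpl39 (SE 0.11), and Mrpl22 stood at 0.02 (SE 0.12). Mrps30, at 0.27 (SE 0.16), was among the few above 0, with mutant arrays of 5646, 5599 and 5762 above wild-type arrays of 4215, 4925 and 5021. Cell type markers differed in the same comparison. Summed signals on mutant against wild-type arrays were 50894 to 60104 against 22821 to 37316 for astrocytes, 273647 to 306986 against 237585 to 250328 for oligodendrocytes and 3813 to 4339 against 2529 to 3090 for microglia, higher on every mutant array. For motor neurons they were lower on every mutant array, at 258635 to 272301 against 281783 to 295047. Of these markers 1 of 6 astrocyte genes was called higher, and none of the other 3 lists was called. The Gapdh 3′ to 5′ ratio was 0.46 higher in the mutant, with overlapping arrays (exact permutation p = 0.2). The part of these in the lower family values was not tested.

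**Figure D4:**
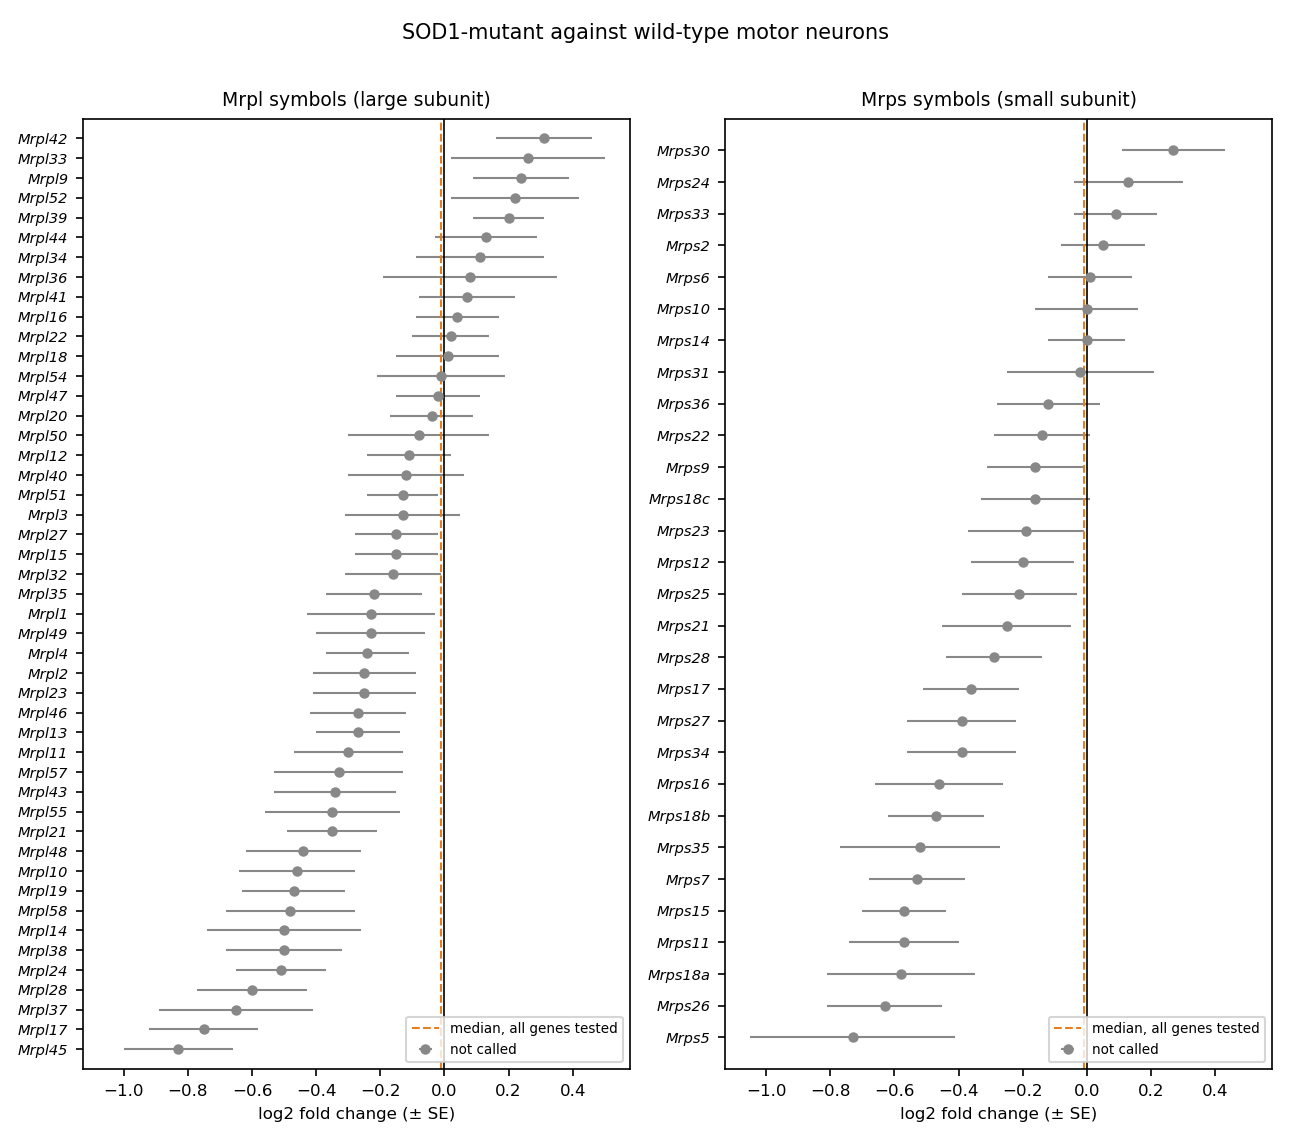
Log2 fold change of each of the 76 genes between SOD1-mutant and wild-type motor neurons (horizontal axis, point with its standard error from limma), large subunit symbols on the left and small subunit symbols on the right. No gene was called, 59 of the 76 points lie below 0, and values run from -0.83 for Mrpl45 to 0.31 for Mrpl42.

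Mutant motor neurons against wild-type cord, a comparison in which capture and genotype change together and which shares its arrays with both others, gave 44 rises and 11 falls with 21 genes not called. Over all genes 28.4% were called higher and 35.3% lower. The median of the 76 genes was 0.51, against -0.13 over all genes, and was 0.39 without replicate 2 of the mutant motor neurons. Mrpl22 stood 5.07-fold, Mrpl41 5.03-fold and Mrpl44 4.96-fold above cord. Mrpl14, Mrps11 and Mrpl50 were the lowest, at log2 -1.01, -0.99 and -1.07. Mrpl45, not called in wild-type motor neurons at 0.20 (SE 0.09), fell by 0.63 (SE 0.14, limma adjusted p = 0.00461). The count of falls was 7 without replicate 3 of the cord.

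The 67 genes with a promoter sequence included 49 rises and 4 falls in wild-type motor neurons, and rises were found with and without the motifs. Of the 8 genes with NRF1 letters 6 rose and none fell, with a median of 0.88: these were Mrpl9, Mrpl17, Mrpl22, Mrpl32, Mrpl39 and Mrps18b, while Mrpl10 and Mrpl33 were not called. Of the 17 genes with ETS letters 12 rose and 1, Mrpl34, fell, with a median of 0.65. Of the 20 genes with none of the 4 motifs in the 250 bases before the start, 16 rose and 1, Mrpl50, fell, with a median of 0.74. They include Mrpl11, Mrpl41, Mrpl44 and Mrpl47. The 50 bases after the start, where more genes had ETS or YY1 letters, were not used in this grouping. The promoter of the largest rise thus held none of these letters in the 250 bases before its start.

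Many of these genes lie back to back with another gene. Of the 67 genes with a RefSeq window, 25 genes, or 37.3%, had a start on the other strand, transcribed away from theirs, within 1000 bases, against 13.1% of 17492 protein-coding genes. They form 24 pairs, since Mrpl46 and Mrps11 are each other's neighbour, and in 20 pairs the neighbour had a tested probe set. In wild-type motor neurons against cord 6 pairs were called in the same direction and 7 in opposite directions. Where the mitochondrial ribosomal protein gene was called higher, 5 neighbours were higher, 7 lower and 3 not called. Of all genes tested 31.1% were called higher and 36.1% lower, and a difference of the neighbours from this was not tested. With quantile normalization the counts of same and opposite calls were 7 and 3, and with centring 11 and 3. The count of opposite calls thus depended on the scaling.

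Mrpl46 and Mrps11, whose starts are separated by the 41 bases printed above, did not change equally. Mrpl46, specific to mitochondria, read 7334, 8053 and 7463 in cord, 21208, 18948 and 19767 in wild-type and 13659, 18058 and 18459 in mutant motor neurons, a rise of 2.62-fold in the wild type (log2 1.39, SE 0.09, limma adjusted p = 2.01e-06). Mrps11 read 5426, 5059 and 5497 in cord, 4029, 4108 and 3799 in wild-type and 2704, 2515 and 2812 in mutant motor neurons, with a log2 change of -0.42 (SE 0.10) in the wild type that became 0.49 with centring. Its 3 groups were stepped without overlap, and its second probe set was also called lower, at -2.48.

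Mrps12 and Sars2, the mitochondrial seryl-tRNA synthetase, are separated by the 146 bases printed above. Mrps12 rose by 0.73 while Sars2 read 1076, 688 and 717 in whole cord and 315, 485 and 467 in wild-type motor neurons, a change of -0.93 (SE 0.29, limma adjusted p = 0.021) that was -0.02 with centring and 0.01 with quantile normalization. The opposite direction held under all 3 scalings, as values, for 3 pairs. Their starts are separated by 613, 755 and 934 bases, the widest spacings of all pairs. They were Mrpl51 beside Ncapd2, a condensin subunit (1.76 and -2.30), Mrps18b beside Ppp1r10, a regulatory subunit of protein phosphatase 1 (1.22 and -3.00), and Mrpl41 beside Pnpla7, a lysophospholipase (2.26 and -1.08). With quantile normalization Ncapd2, Ppp1r10 and Pnpla7 stood at -1.40, -2.10 and -0.22, and with centring at -1.39, -2.10 and -0.18. Of the 3 tested probe sets of Mrpl51, 2 were called lower, the direction of Ncapd2. In the 4 opposite pairs within 500 bases the lower genes were Mrps11, Sars2, Fau and Zfp661. With centring these stood at 0.49, -0.02, 0.28 and 0.03. Ppp1r10 read 137, 44 and 217 on the wild-type motor neuron arrays, where the background level was 131 to 146.7, and 1 of the 3 arrays was above its own level. Pairs that rose together included Mrpl47 with Ndufb5, a subunit of respiratory complex I (2.12 and 0.46, the latter -0.03 with quantile normalization), Mrpl18 with the chaperonin gene Tcp1 (0.65 and 0.80), and Mrpl32 with the proteasome gene Psma2 (0.42 and 1.48).

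**Figure D5:**
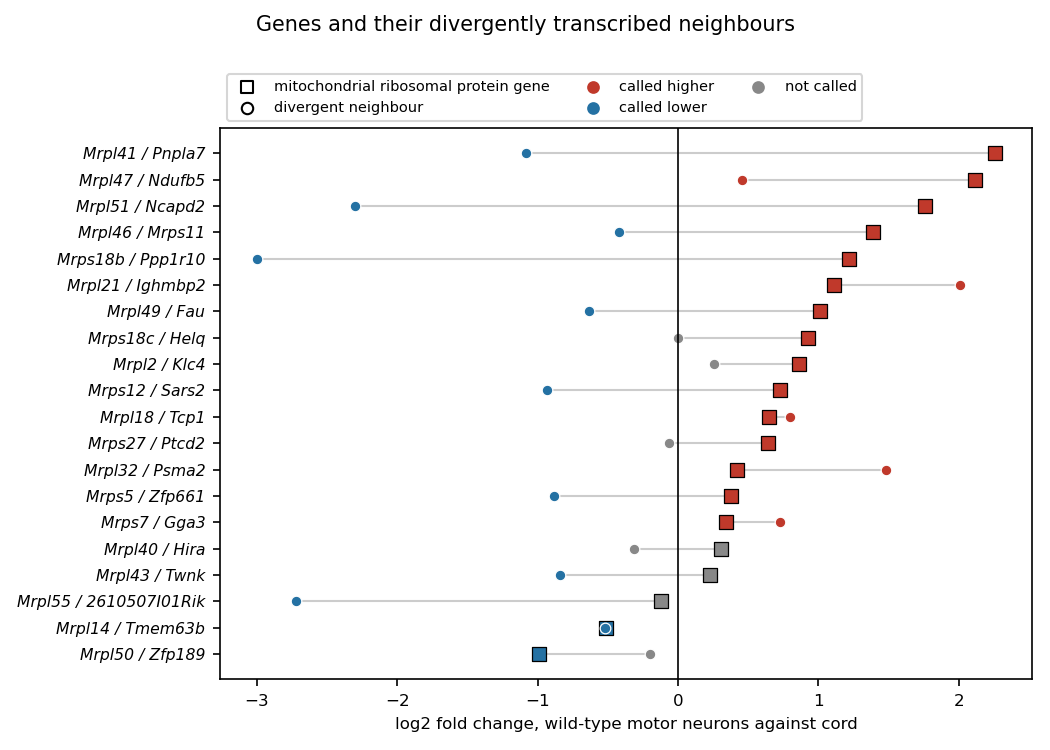
Log2 fold change between wild-type motor neurons and cord (horizontal axis) of the 20 pairs of divergently transcribed genes, the mitochondrial ribosomal protein gene as a square and its neighbour as a circle joined by a line, ordered by the former. Of the 20 pairs 6 were called in the same direction and 7 in opposite directions, among the latter Mrpl51 at 1.76 beside Ncapd2 at -2.30. Of all genes tested 31.1% were called higher and 36.1% lower. Each gene is read from its brightest tested probe set, and 2 of the 3 tested for Mrpl51 were called lower.

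Other parts of the mitochondrial translation apparatus were read from a list of genes for each step, and with the deposited scaling some rose and some fell; these counts stand beside the 31.1% of all genes called higher and 36.1% called lower. The falls depended on the scaling: with centring there was 1 lower call over all 7 lists, in the assembly list. With centring 57.9% of all genes were called higher and 15.3% lower, and with quantile normalization 42.2% and 26.1%. Among 4 mitochondrial ribosomal proteins that carry other symbols 3 rose and none fell, with a median of 0.71: Chchd1 rose by 1.14, Ptcd3 by 0.91 and Dap3 by 0.51. Chchd1 read 12831, 11533 and 12109 in cord, 23440, 32580 and 25203 in wild-type and 24110, 39027 and 26460 in mutant motor neurons. Of 3 initiation genes Mtif3, an initiation factor, rose by 1.50 and Mtfmt, which formylates the initiator tRNA, by 1.20, while Mtif2, the factor that places that tRNA, fell by 0.77. Of 4 elongation factors Tufm, which delivers aminoacyl-tRNA, rose by 1.61 and Gfm1, which drives translocation, by 0.96. Among 4 termination and recycling genes the recycling factor Mrrf rose by 1.32 and Pdf, the peptide deformylase, fell by 0.71.

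Of 23 genes for assembly of the mitochondrial ribosome and modification of its RNA, 11 rose and 2 fell, with a median of 0.31. Eral1, a GTPase that binds the small subunit RNA, read 4093, 4132 and 4271 in cord, 24188, 19890 and 23500 in wild-type and 23850, 19092 and 24372 in mutant motor neurons. This rise of 5.37-fold (log2 2.42, SE 0.10, limma adjusted p = 3.32e-07) stood on 1 of its 5 tested probe sets, with another called lower. The GTPase Gtpbp10 rose by 1.90 and the RNA-binding protein Fastkd2 by 1.76, while Spg7, a subunit of the protease that matures Mrpl32, fell by 1.63. Of 15 mitochondrial aminoacyl-tRNA synthetases 6 rose and 4 fell, with a median of 0.13. With quantile normalization 10 rose and 0 fell (median 0.88, against 0.27 over all genes). With centring 11 rose and 0 fell (median 1.03, against 0.81 over all genes). With the deposited scaling the synthetases Cars2, Lars2 and Nars2 stood at 1.39, 1.10 and 0.99 and Aars2 at -2.11. Cars2 and Lars2, like Gtpbp10, each had 2 tested probe sets, 1 called higher and 1 lower. Of 12 genes for mitochondrial transcription and mRNA handling 5 rose and 2 fell, with a median of 0.18. Slirp, which stabilises mitochondrial messages, rose 5.14-fold from 10044, 10369 and 9546 to 50961, 49930 and 53282, Pnpt1 rose by 1.20 and Rexo2 by 0.83, and Oxa1l, the insertase for newly made proteins, fell by 0.61.

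In the mutant comparison 1 gene of these lists was called, Mtfmt, which read 4319, 3693 and 4326 in wild-type and 1757, 1764 and 1944 in mutant motor neurons, with 2239, 1722 and 1458 in cord. Its change of -1.16 had a limma adjusted p of 0.0387 and was not called under either other scaling.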

How the data were processed

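The values were the signal intensity of each probe set on a linear scale, as deposited by the authors, already scaled so that the trimmed mean, without the lowest and highest 2% of probe sets, was 2500 on every array. The labels state no software and no protocol for capture or labelling. Logarithms to base 2 were taken after adding 20.3 (the 10th percentile over all arrays), which shrinks the log2 change of dim probe sets. The 27022 probe sets above the 40th percentile of the mean over the groups were tested, 64 controls left out. Each comparison was fitted on its 6 arrays with the R package limma (version 3.58.1, R 4.3.3; lmFit, then eBayes with a trend on intensity). Tests were two-sided and p-values were adjusted by Benjamini and Hochberg's method, with calls below 0.05. A gene was read from its tested probe set of highest mean over the groups. Background was the 95th percentile of 27 bacterial control probe sets on each array. The members, the lists and the classes by bacterial homology, assigned by hand, were chosen with earlier results of these data known. The genes named were the 10 largest rises and falls against cord whose arrays did not overlap, the 5 lowest p-values in the mutant comparison, 11 genes always given (Mrps18a, Mrps18b, Mrps18c, Mrps30, Mrps36, Mrps12, Mrpl12, Mrps16, Mrps22, Mrpl3 and Mrpl44), every gene with calls in both directions and up to 4 passing genes of each list. Mrpl10, Mrpl23, Mrpl24 beside cord, Mrps30 in the mutant comparison, Mrpl42, Mrpl46 and the divergent neighbours were chosen after their values were seen, as was the search for such neighbours. On simulated arrays with 27022 probe sets, 100 were changed by log2 1 and 100 by log2 2. The fit of motor neurons against cord recovered 37% of size 1 and 75% of size 2, and the mutant fit recovered 10% and 56%. In the data against cord far more were called, 6494 higher and 11206 lower, so the adjusted threshold was less strict there. The rates of the first fit therefore do not carry over to that comparison. The alternatives were other scalings, filters, pseudocounts, fits, probe set rules and leaving out each array. The number of arrays limits the precision. Python 3.11.15, pandas 2.3.3 and matplotlib 3.10.9 were used.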

Additional observations from a re-analysis of the deposited data

How the results depend on the processing

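For wild-type motor neurons against cord, the count of falls (5) was 3 with quantile normalization and 0 with centring, and 3 to 9 with 1 array left out. Of all genes, 26.1% were called lower with quantile normalization and 15.3% with centring. The median rise (0.67) was 1.58 with centring. For the mutant against the wild type, all 9 arrays in 1 fit called 9 falls and the fit with the replicate number as a replicate block 3 (Mrpl17, Mrpl45 and Mrps15), and with any 1 array left out 0 genes were called. The share of all genes called in the fit with the block is not given here. Whether replicate numbers pair the arrays is not known. In this comparison deviations of same-numbered arrays correlated at 0.15, 0.17 and 0.00, and those of differently numbered arrays at -0.18 to 0.06. For the mutant against cord, falls (11) were 0 with centring and 7 to 14 with 1 array left out, and the median (0.51) was 1.35 with centring and 0.39 to 0.53 with 1 array left out. With centring 14.5% of all genes were called lower in that comparison, and their median was 0.72.

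With all probe sets of a gene averaged, the change against cord reversed for Mrpl1 (-0.27), Mrpl3 (-0.09), Mrpl9 (-0.77), Mrpl34 (0.55), Mrpl50 (0.06), Mrpl52 (-0.02), Mrpl57 (-0.40), Mrps2 (-0.55) and Mrps5 (-0.61), and in the mutant for Mrpl50 (0.03). With the probe set brightest in cord it reversed for Mrpl1 (-1.23) and Mrps23 (-1.27). Centring reversed Mrpl14 (0.39), Mrpl34 (0.50), Mrpl54 (0.54) and Mrps11 (0.49), and in the mutant Mrpl34 (0.55) and Mrpl54 (0.47). Quantile normalization reversed Mrpl54 (0.06). The cause was not tested. The choice of the probe set brightest in cord, the background floor and the divergent pairs' settings were added after seeing the data.

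For the lists against cord, quantile normalization and centring gave 4 and 4 elongation factors higher, 2 and 3 termination factors higher, 10 and 11 synthetases higher with 0 and 0 lower, and 17 and 20 assembly genes higher. They gave 0 and 0 transcription genes lower, and 0 and 0 initiation genes lower in the mutant. With centring, 9 transcription genes were higher, 1 assembly gene was lower, and 0 initiation and 0 termination genes were lower. Of all genes, quantile normalization and centring called 42.2% and 57.9% higher and 26.1% and 15.3% lower against cord. Divergent pairs called opposite ways (7) were 3 with quantile normalization, 3 with centring and 4 for starts within 500 bases, and pairs called the same way (6) were 11 with centring.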
